A study of Mus musculus with 8 samples.

Results

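Matrix metalloproteinases and their tissue inhibitors, the TIMPs, were measured in neutrophils sorted from mouse tumours by surface ICAM1. The set was chosen by name as 7 metalloproteinase genes (Mmp2, Mmp3, Mmp8, Mmp9, Mmp12, Mmp13 and Mmp14) and 3 inhibitor genes (Timp1, Timp2 and Timp3), each found as 1 row among the 25572 gene identifiers of the deposited table. The cells had infiltrated PyMT-N tumours borne by C57/B6 mice, and were sorted into ICAM1-high cells, titled cd54+, and ICAM1-low cells, titled cd54-, since CD54 is another name of ICAM1. Both groups share strain and tumour, and the labels used here name no age, treatment or added allele, nor the other surface markers of the sort. Each group had 4 libraries, which carry the numbers 1, 2, 3 and 5 and were made from 150 pg of RNA each. The labels do not say whether separate mice gave the libraries of a group, so p-values measure spread among the libraries alone, and this may be technical.

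Metalloproteinases are zinc enzymes that are made as inactive precursors and cut collagens, elastin, basement membrane and many signalling proteins once activated. Neutrophils store MMP8 and MMP9 in their granules, macrophages are the usual source of MMP12, and MMP2, MMP3, MMP13 and MMP14 are best known from fibroblasts and other cells of the stroma. TIMPs bind the active site of these enzymes, and TIMP2 also takes part, with MMP14, in activating the MMP2 precursor at the cell surface.

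Mmp12 and Mmp8, the genes of the set whose groups did not overlap, lie in one run of neighbouring genes with Mmp13 and Mmp3, so the start regions of these 4 are shown first. In the RefSeq annotation of GRCm38.p6, a run of 10 neighbouring metalloproteinase genes on chromosome 9 begins with Mmp13 and Mmp12, goes on to Mmp3 and Mmp8, and ends with Mmp7. All 4 genes of the run that had enough counts to be tested are in the set. The 300-base windows below, from the RefSeq table of GRCm38.p6, span the annotated start of each gene and are written 5′ to 3′. Capitals mark 3 motifs searched on both strands. The AP-1 motif was searched as TGANTCA. The TATA box was searched as TATAAA. The GC box was searched as GGGCGG. No 2 of these matches overlap in the windows shown.
Mmp13, chr9:7272264-7272563, plus strand: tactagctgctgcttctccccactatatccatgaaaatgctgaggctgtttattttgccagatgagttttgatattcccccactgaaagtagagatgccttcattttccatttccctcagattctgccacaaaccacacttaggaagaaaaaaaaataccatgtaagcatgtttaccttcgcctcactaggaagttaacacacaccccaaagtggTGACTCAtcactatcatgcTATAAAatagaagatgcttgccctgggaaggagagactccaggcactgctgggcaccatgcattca
Mmp12, the second of its annotated starts, chr9:7347124-7347423, plus strand: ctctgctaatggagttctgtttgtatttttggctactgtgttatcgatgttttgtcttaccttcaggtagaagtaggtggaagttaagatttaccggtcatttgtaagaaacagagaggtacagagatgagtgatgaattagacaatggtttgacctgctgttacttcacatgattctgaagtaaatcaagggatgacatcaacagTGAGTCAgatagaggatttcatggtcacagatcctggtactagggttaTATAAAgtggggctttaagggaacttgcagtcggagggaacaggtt
Mmp3, chr9:7445572-7445871, plus strand: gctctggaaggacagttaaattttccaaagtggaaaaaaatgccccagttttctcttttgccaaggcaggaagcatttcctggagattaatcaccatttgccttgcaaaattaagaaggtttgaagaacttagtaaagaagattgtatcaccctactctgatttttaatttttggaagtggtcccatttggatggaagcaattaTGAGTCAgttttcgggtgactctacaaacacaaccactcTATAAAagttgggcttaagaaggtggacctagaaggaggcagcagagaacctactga
Mmp8, chr9:7558179-7558478, plus strand: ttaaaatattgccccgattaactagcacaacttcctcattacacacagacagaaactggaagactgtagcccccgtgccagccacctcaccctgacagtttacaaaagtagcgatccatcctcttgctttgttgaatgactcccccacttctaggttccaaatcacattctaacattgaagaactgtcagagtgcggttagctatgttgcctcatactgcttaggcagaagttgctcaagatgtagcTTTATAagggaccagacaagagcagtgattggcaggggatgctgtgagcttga
Timp3, chr10:86300162-86300461, plus strand, shown for contrast with the chromosome 9 run: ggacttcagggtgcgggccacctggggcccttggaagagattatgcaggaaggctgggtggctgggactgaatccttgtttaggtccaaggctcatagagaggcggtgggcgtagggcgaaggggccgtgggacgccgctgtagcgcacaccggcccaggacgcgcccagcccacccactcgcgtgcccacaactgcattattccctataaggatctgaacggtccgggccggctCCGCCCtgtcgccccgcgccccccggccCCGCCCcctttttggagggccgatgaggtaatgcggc
The AP-1 letters began 35, 44 and 46 bases before the annotated start in Mmp13, Mmp12 and Mmp3, and were not in the Mmp8 window. The TATA box letters were in all 4 of these windows and the GC box letters in none of them, while Timp3 held the GC box letters at 2 places and neither other motif. The TATA box letters began 16, 7 and 3 bases before the annotated start in Mmp13, Mmp3 and Mmp8, in Mmp8 on the opposite strand. In Mmp12 they began at -4, after the annotated start. Of the 32851 windows in the table, 7.81% held the AP-1 letters, 13.6% the TATA box letters and 35.7% the GC box letters. The table matched 8 of the 10 genes, with 9 windows, since Mmp12 has 2. The other Mmp12 window, not printed, held none of the 3 motifs. Mmp2 and Mmp9 were not matched. GC content was 40 to 46% in the 4 chromosome 9 windows printed here and 67% in Timp3, against a median of 52.7% over all windows. These matches describe letters and were not related to the expression values by any test.

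No gene of the set passed the test between the groups at an adjusted p under 0.05 (edgeR quasi-likelihood test, Benjamini-Hochberg adjustment over 13575 genes). All 10 had enough counts to be tested, and 1.5% of all genes passed in either direction (1.22% higher and 0.273% lower in ICAM1-high). The 2 foremost were Mmp12, which was higher in every ICAM1-high library than in any ICAM1-low library, and Mmp8, which was lower in every ICAM1-high library. Both missed the threshold narrowly, each with an edgeR adjusted p of 0.0583. At an unadjusted p under 0.05 there were 4 of the 10, with Mmp12 higher and Mmp8, Mmp2 and Timp3 lower in ICAM1-high, against 7.96% of all genes higher and 8.96% lower. With DESeq2 these same 4 were past an adjusted p of 0.05, as were 9.32% of all genes. With limma-voom and sample weights Mmp2, Mmp8 and Mmp12 were past it, as were 5.96% of all genes. With a replicate term the same 4 genes as with DESeq2 passed, against 3.99% of all genes. Mmp8 and Mmp12 passed with a stricter filter, against 2.82% of all genes. Mmp12 alone passed with upper-quartile scaling (1.83% of all genes), with library sizes only (2.13%) and without ICAM1-low library 2 (0.533%). Mmp8 alone passed without a filter (1.43% of all genes) and without ICAM1-low library 3 (1.18%). Mmp2 alone passed without ICAM1-low library 5 (4.05% of all genes), and Mmp2 and Timp3 without both libraries numbered 5 (2.97%). Over the set the median log2 fold change was -0.81, with 3 positive and 7 negative values, against -0.07 over all genes tested. Groups that did not overlap were found for Mmp12 on the higher side and Mmp8 on the lower side, and for 7.51% and 3.89% of all genes on those sides.

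**Figure D1:**
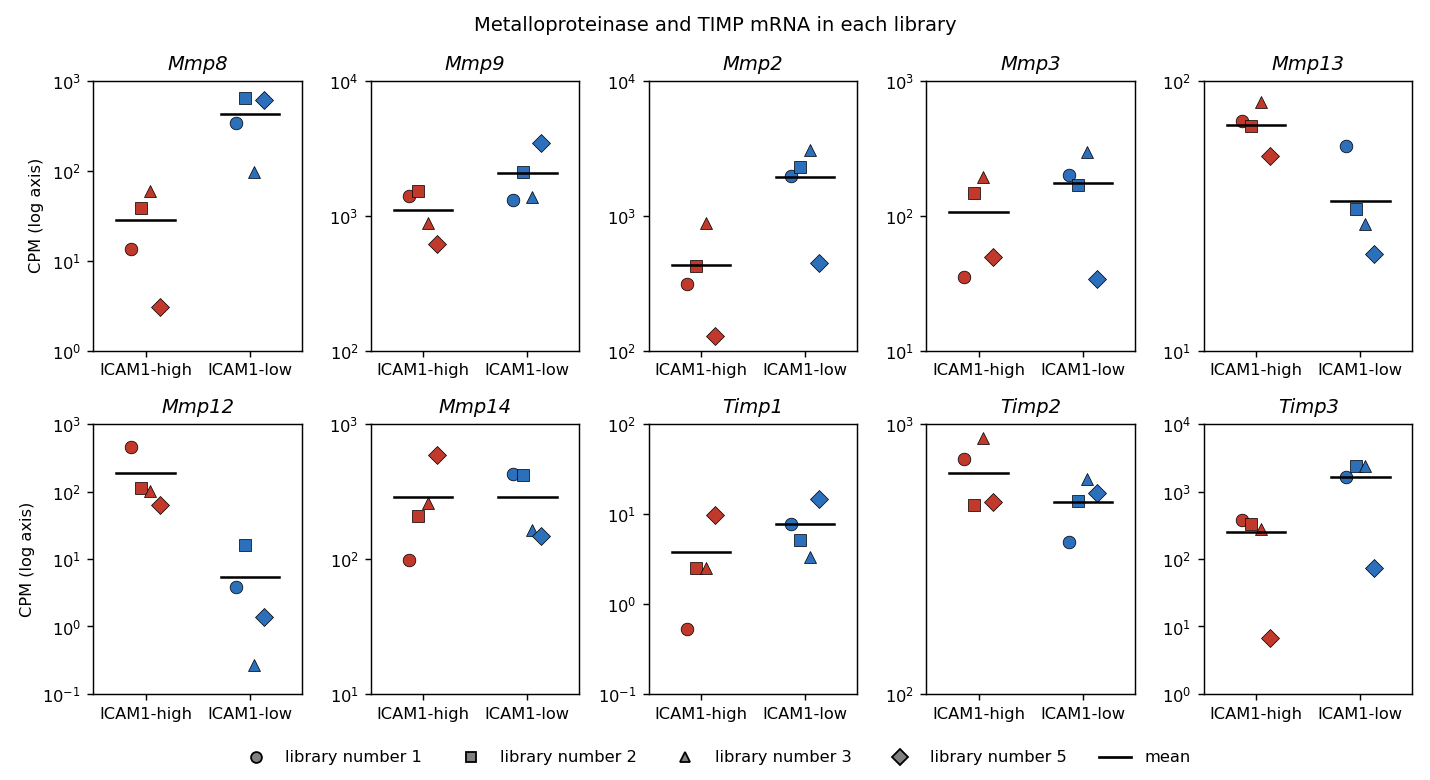
Level of each of the 10 genes in CPM (log axis) in ICAM1-high (red) and ICAM1-low (blue) libraries, with 1 symbol per library number and a line at the mean of 4. Mmp12 lies higher and Mmp8 lower in all ICAM1-high libraries, and Timp3 is lowest in the libraries numbered 5 of both groups.

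The libraries had 15940080 to 21824788 rounded estimated counts each, and levels are given as CPM, counts relative to the TMM-adjusted library size. In that unit 3 counts, taken as the floor for counting error only, correspond to 0.121 to 0.263 CPM. Every gene of the set had at least 5 counts in every library. Replicate libraries differed widely, with Pearson's r across all genes (log2 CPM) of 0.77 to 0.85 among ICAM1-high and 0.60 to 0.84 among ICAM1-low libraries. Icam1 mRNA was 48.2, 58.4, 42.4 and 122 CPM in ICAM1-high libraries 1, 2, 3 and 5, and 18.7, 9.23, 4.31 and 138 CPM in ICAM1-low libraries 1, 2, 3 and 5. The library labelled ICAM1-low replicate 5 thus goes against its label for this mRNA, although the sort was on surface protein. Values without it, or without both libraries numbered 5, are therefore given where they change a call on the genes of the set or a count of markers. Of 15 neutrophil markers 7 were lower and none higher in ICAM1-high, Ly6g included, and of 14 macrophage markers 10 were higher and none lower (edgeR adjusted p under 0.05). Over all genes 0.273% were lower and 1.22% higher. Without ICAM1-low library 5 there were 9 lower neutrophil and 11 higher macrophage markers, and without both libraries numbered 5 there were 7 and 11, alternatives chosen after seeing the data. In these alternatives 4.05% and 2.97% of all genes passed in either direction, against 1.5% in the main test. No marker of these lists was at 0 in any library. In bulk RNA, fewer cells of a type and less RNA per cell cannot be told apart.

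Mmp8 encodes the collagenase that neutrophils keep in their specific granules. Mmp8 stood at 13.6, 38.3, 59.6 and 3.09 CPM in ICAM1-high libraries 1, 2, 3 and 5, against 337, 643, 97.5 and 623 CPM in ICAM1-low libraries 1, 2, 3 and 5. The groups did not overlap, and the nearest libraries were those numbered 3. Means were 28.7 ± 25.4 CPM in ICAM1-high libraries, against 425 ± 259 CPM in ICAM1-low (± SD, n = 4 each), with -3.89 ± 0.90 as log2 fold change (SE; edgeR adjusted p = 0.0583). Over 17 alternative analyses the log2 fold change of Mmp8 lay between -4.52 and -3.25 and its adjusted p between 7.26e-05 and 0.178 (edgeR, DESeq2 or limma). Leaving out ICAM1-low library 3 gave an edgeR adjusted p of 0.0413, and leaving out ICAM1-high library 1 gave 0.178. The other 13 neutrophil markers, Mmp8 and Mmp9 left out after their values were known, summed to 1383 to 3367 CPM in ICAM1-high libraries, against 6430 to 33987 CPM in ICAM1-low libraries. ICAM1-high library 5 had the lowest sum and the lowest Mmp8, and among ICAM1-low libraries number 3 had the lowest of both. The part of these markers in the Mmp8 result was not tested. The 3 genes whose log2 CPM was most like that of Mmp8 over the 8 libraries were Ltf (Pearson's r = 0.98), Ngp (0.98) and Pglyrp1 (0.97), all genes of neutrophil granule proteins.

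Mmp9 encodes gelatinase B, the metalloproteinase of the tertiary or gelatinase granules of neutrophils, and it was the most abundant of the set per length in both groups. Mmp9 amounted to 1394, 1526, 878 and 617 CPM in ICAM1-high libraries 1, 2, 3 and 5, against 1315, 2115, 1374 and 3495 CPM in ICAM1-low libraries 1, 2, 3 and 5. The groups overlapped, and the widest gap was between the libraries numbered 5. The log2 fold change was -0.91 ± 0.51 (SE, n = 4 against 4; edgeR adjusted p = 0.395), and leaving out both libraries numbered 5 gave -0.32 (edgeR adjusted p = 0.72). Most like Mmp9 over the 8 libraries were Lbr, Sorl1 and Fpr1, the gene of a formyl peptide receptor (Pearson's r of log2 CPM 0.98 for each).

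Both granule enzymes can be compared within a library, where library scaling all but cancels. The log2 ratio of Mmp8 to Mmp9 was -6.63, -5.30, -3.87 and -7.43 in ICAM1-high libraries 1, 2, 3 and 5, and -1.96, -1.72, -3.81 and -2.49 in ICAM1-low libraries 1, 2, 3 and 5. Relative to Mmp9, Mmp8 was thus lower in each ICAM1-high library, with a narrow gap between the libraries numbered 3. The difference in mean log2 ratio was -3.31, with a two-sided exact permutation p of 0.0286, the smallest that 70 assignments of 4 against 4 can give. Adjusted over the 6 ratios computed it was 0.0571, which does not pass the threshold.

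Mmp12, the gene of macrophage elastase, showed the widest contrast of the set. It stood at 465, 113, 104 and 63.7 CPM in ICAM1-high libraries 1, 2, 3 and 5, against 3.79, 16.4, 0.266 and 1.4 CPM in ICAM1-low libraries 1, 2, 3 and 5. Every ICAM1-high library was above every ICAM1-low library, and ICAM1-high library 1 stood well above the other ICAM1-high libraries. Means were 186 ± 187 CPM in ICAM1-high libraries, against 5.47 ± 7.45 CPM in ICAM1-low (± SD, n = 4 each), with 5.09 ± 1.17 as log2 fold change (SE; edgeR adjusted p = 0.0583). Exons of Mmp12 also share bases with those of Mmp1b on the opposite strand in the GENCODE M21 annotation, and Mmp1b has no row here. ICAM1-low library 3 held 5 counts of Mmp12, close to the floor, so the size of the fold change is uncertain. Between 17 alternatives the log2 fold change ran from 4.06 without ICAM1-high library 1 to 6.67 without ICAM1-low library 2, and the adjusted p of Mmp12 from 1.46e-05 to 0.165 (edgeR, DESeq2 or limma). It passed the threshold in 7 of them. Without ICAM1-low library 2 the edgeR adjusted p was 0.0467.

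Macrophage markers moved with Mmp12 between the groups but not library by library. The 14 markers summed to 8836, 5697, 5859 and 16298 CPM in ICAM1-high libraries 1, 2, 3 and 5, and to 816, 842, 1075 and 1174 CPM in ICAM1-low libraries 1, 2, 3 and 5. Their summed level differed between the groups with an exact permutation p of 0.0286, two-sided and the smallest possible, and an adjusted p of 0.0857 over 9 marker lists. ICAM1-high library 5 had the highest macrophage sum and the lowest Mmp12 of its group. Among ICAM1-low libraries, numbers 3 and 5 had the higher macrophage sums of their group and the lower Mmp12. The part of macrophage RNA in the Mmp12 result was not tested. Most like Mmp12 were Tor1a (Pearson's r of log2 CPM over 8 libraries 0.99), Tmem26 (0.98) and Itga9 (0.98). The log2 ratio of Mmp12 to Mmp9 averaged -2.92 ± 0.94 in ICAM1-high libraries, against -9.22 ± 1.93 in ICAM1-low libraries (± SD, n = 4 each; two-sided exact permutation p = 0.0286, adjusted p = 0.0571 over 6 ratios).

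**Figure D2:**
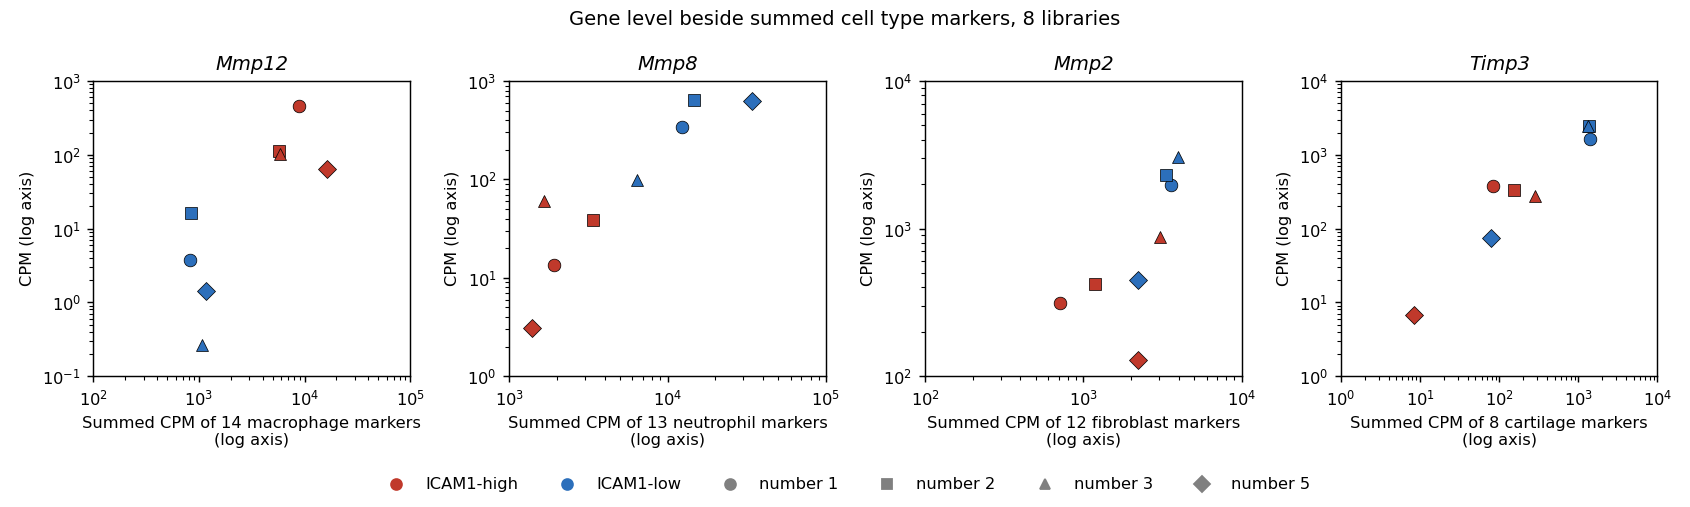
Level of Mmp12, Mmp8, Mmp2 and Timp3 (CPM, log axis) against the summed CPM (log axis) of macrophage, neutrophil (without Mmp8 and Mmp9), fibroblast and cartilage markers, for 4 ICAM1-high (red) and 4 ICAM1-low (blue) libraries. ICAM1-high library 5 combines the highest macrophage sum, 16298 CPM, with 63.7 CPM of Mmp12, and Timp3 is lowest where the cartilage sum is lowest.

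Mmp13 encodes collagenase-3, which cuts fibrillar collagen and is best known from cartilage and bone. There were 71.0, 68.3, 83.8 and 52.7 CPM of Mmp13 in ICAM1-high libraries 1, 2, 3 and 5, against 57.5, 33.4, 29.5 and 22.8 CPM in ICAM1-low libraries 1, 2, 3 and 5. In all 4 same-numbered pairs the ICAM1-high library had more Mmp13, as was the case for 14.7% of all genes, but the groups overlapped through ICAM1-high library 5 and ICAM1-low library 1. The log2 fold change was 0.94 ± 0.45 (SE, n = 4 against 4; edgeR adjusted p = 0.312) and kept its sign in the 17 alternatives, between 0.78 and 1.27. With a span of 1.59-fold from lowest to highest, Mmp13 varied least of the set among ICAM1-high libraries. Relative to Mmp9, Mmp13 was higher in all ICAM1-high libraries, with a narrow gap between ICAM1-high library 2 (log2 ratio -4.47) and ICAM1-low library 1 (-4.50). The mean log2 ratio was -3.92 ± 0.54 in ICAM1-high libraries, against -5.80 ± 1.13 in ICAM1-low libraries (± SD, n = 4 each). The two-sided exact permutation p was 0.0286, and the adjusted p 0.0571 over 6 ratios. The difference in mean log2 ratio was 1.88, and 1.28 without both libraries numbered 5. The genes most like Mmp13 over 8 libraries were Selenoo, Hsd3b7 and Dhx29 (Pearson's r of log2 CPM 0.94 to 0.96). Osteoclast markers, of which 1 of 6 tested was higher in ICAM1-high (Acp5, edgeR adjusted p = 0.0295), summed to 1226 to 2942 CPM in ICAM1-high libraries, against 29.3 to 1678 CPM in ICAM1-low libraries; Calcr, Dcstamp and Oscar were at 0 in at least 1 library. In the main test 1.22% of all genes were higher. Without ICAM1-low library 5, 2 osteoclast markers were higher, and 4.05% of all genes passed in either direction. Their part in the Mmp13 values was not tested.

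Mmp2 encodes gelatinase A, which fibroblasts secrete constitutively. Mmp2 measured 313, 422, 878 and 129 CPM in ICAM1-high libraries 1, 2, 3 and 5, against 1967, 2302, 3062 and 446 CPM in ICAM1-low libraries 1, 2, 3 and 5. In each same-numbered pair Mmp2 was lower in ICAM1-high, as were 12.3% of all genes, and the groups overlapped through the library labelled ICAM1-low replicate 5. For Mmp2 the log2 fold change was -2.16 ± 0.71 (SE, n = 4 against 4; edgeR adjusted p = 0.16). Without ICAM1-low library 5 it passed the threshold at -2.47 (edgeR adjusted p = 0.0427), and without both libraries numbered 5 it was -2.16 (edgeR adjusted p = 0.0421).

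Fibroblast markers were measured in both groups. Of 12, 1 was lower in ICAM1-high, the collagen gene Col6a1 (edgeR adjusted p under 0.05), against 0.273% of all genes. Without both libraries numbered 5 there were 2, and 2.97% of all genes passed in either direction. The 12 markers summed to 709, 1180, 3052 and 2228 CPM in ICAM1-high libraries 1, 2, 3 and 5, and to 3554, 3328, 3962 and 2225 CPM in ICAM1-low libraries 1, 2, 3 and 5. The groups overlapped (two-sided exact permutation p = 0.0857, adjusted p = 0.129 over 9 marker lists). Thy1 was the single marker at 0 in any library. Among ICAM1-low libraries number 5 had the lowest fibroblast sum and the lowest Mmp2. The libraries numbered 5 had nearly equal sums and differed in Mmp2, but single markers within these sums went both ways. Col1a1, Col3a1, Dcn, Lum and Thy1 were higher in ICAM1-high library 5 than in ICAM1-low library 5. Col1a2, Col6a1, Pdgfra, Pdgfrb, Fap, Postn and Fbn1 were lower in ICAM1-high library 5. Col3a1 alone was 863 CPM in ICAM1-high library 5, against 566 CPM in ICAM1-low library 5. The part of fibroblast RNA in the Mmp2 result was not tested. Nearest to Mmp2 in pattern were Serpinf1, Rhoj and Serpinh1, the gene of the collagen chaperone HSP47 (Pearson's r of log2 CPM over 8 libraries 0.99 for each).

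Mmp3, the gene of stromelysin-1, was 35.1, 149, 194 and 49.5 CPM in ICAM1-high libraries 1, 2, 3 and 5, against 202, 168, 297 and 33.7 CPM in ICAM1-low libraries 1, 2, 3 and 5. The groups overlapped broadly, and ICAM1-low library 5 was the lowest of all 8. Its log2 fold change was -0.71 ± 0.70 (SE, n = 4 against 4; edgeR adjusted p = 0.639). Genes most like Mmp3 were Bmi1, Slc38a3 and Zfp521 (Pearson's r of log2 CPM over 8 libraries 0.97 to 0.98).

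Mmp14 encodes MT1-MMP, a membrane-anchored enzyme that activates the MMP2 precursor. It was 97.8, 207, 261 and 588 CPM in ICAM1-high libraries 1, 2, 3 and 5, against 424, 419, 164 and 148 CPM in ICAM1-low libraries 1, 2, 3 and 5. Means were nearly equal, 288 ± 211 CPM in ICAM1-high libraries, against 289 ± 154 CPM in ICAM1-low (± SD, n = 4 each), and the log2 fold change was 0.00 ± 0.60 (SE; edgeR adjusted p = 0.999). This SE leaves room for differences in either direction, and the sign turned in 8 of 17 alternatives. Without both libraries numbered 5 the log2 fold change of Mmp14 was -0.81 (edgeR adjusted p = 0.439). The genes closest to Mmp14 were Prpf8, Gmppb and Vps9d1 (Pearson's r of log2 CPM over 8 libraries 0.95 to 0.97).

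The inhibitors differed among themselves. Timp3, whose protein binds to the extracellular matrix and also inhibits ADAM proteases, was 375, 336, 279 and 6.75 CPM in ICAM1-high libraries 1, 2, 3 and 5, against 1640, 2437, 2442 and 73.7 CPM in ICAM1-low libraries 1, 2, 3 and 5. In both groups the library numbered 5 stood far below the rest, so that Timp3 spanned 55.5-fold among ICAM1-high and 33.1-fold among ICAM1-low libraries. Timp3 was lower in ICAM1-high in all 4 same-numbered pairs, as were 12.3% of all genes. The groups overlapped through ICAM1-low library 5. The log2 fold change was -2.73 ± 1.10 (SE, n = 4 against 4; edgeR adjusted p = 0.241), and without both libraries numbered 5 it passed the threshold at -2.70 (edgeR adjusted p = 0.0115).

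The summed level of cartilage markers was also lowest in the libraries numbered 5, though among the other ICAM1-high libraries its order was the reverse of that of Timp3. The 8 chondrocyte markers, such as Acan, Col2a1 and Col9a1, summed to 84.2, 153, 285 and 8.51 CPM in ICAM1-high libraries 1, 2, 3 and 5, and to 1391, 1369, 1317 and 79.4 CPM in ICAM1-low libraries 1, 2, 3 and 5. None of the 7 tested passed the edgeR threshold. Without both libraries numbered 5, a choice made after seeing the data, 5 did, all lower in ICAM1-high, against 2.97% of all genes in either direction. Without ICAM1-low library 5 there was 1, against 4.05% of all genes in either direction. With all libraries their summed level had an exact permutation p of 0.114 (two-sided; adjusted p = 0.147 over 9 marker lists). Sox9 went against the sum, with 53.6 CPM in ICAM1-low library 5, the highest of all 8 libraries and most of that library's 79.4 CPM. Acan, Col2a1, Matn3 and Hapln1 were at 0 in at least 1 library. The part of these genes in the Timp3 values was not tested. The genes most like Timp3 over 8 libraries were Casp12, Tspan7 and Col9a1, a cartilage collagen gene (Pearson's r of log2 CPM 0.99 for each). Exons of Timp3 share bases with those of Syn3, which lies on the opposite strand, in the GENCODE M21 annotation. Syn3 averaged 8.13 CPM in ICAM1-high libraries, against 46.5 CPM in ICAM1-low libraries, and since strand is not stated for the counts, reads of these genes cannot be told apart with certainty.

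Timp2, a soluble inhibitor, was the steadiest gene of the set over all libraries. Timp2 read 740, 503, 889 and 515 CPM in ICAM1-high libraries 1, 2, 3 and 5, against 365, 519, 625 and 556 CPM in ICAM1-low libraries 1, 2, 3 and 5. The groups overlapped, and the highest and the lowest library differed far less than for Timp3. The log2 fold change was 0.36 ± 0.41 (SE, n = 4 against 4; edgeR adjusted p = 0.70). Genes nearest to Timp2 were Elavl1, Ipo7 and Sh2b3 (Pearson's r of log2 CPM over 8 libraries 0.90 to 0.93).

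Timp1, an inducible inhibitor that binds the MMP9 precursor, was the least abundant of the 3 in CPM. It was 0.523, 2.50, 2.51 and 9.66 CPM in ICAM1-high libraries 1, 2, 3 and 5, against 7.71, 5.16, 3.36 and 14.7 CPM in ICAM1-low libraries 1, 2, 3 and 5. It was lower in ICAM1-high in all 4 same-numbered pairs, as were 12.3% of all genes. The libraries numbered 5 were the highest in each group, and the groups overlapped through ICAM1-high library 5. The log2 fold change was -1.02 ± 0.99 (SE, n = 4 against 4; edgeR adjusted p = 0.639), and it was -2.03 without ICAM1-high library 5 (edgeR adjusted p = 0.456) and -0.52 without ICAM1-low library 5 (edgeR adjusted p = 0.824). Timp1 was most like Itpr2, Pip5k1a and Mrpl17 (Pearson's r of log2 CPM over 8 libraries 0.95 to 0.98).

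No ratio with an inhibitor passed the test, which does not show that they were alike. The log2 ratio of Mmp9 to Timp1 averaged 8.38 ± 1.88 in ICAM1-high libraries, against 8.05 ± 0.58 in ICAM1-low libraries (± SD, n = 4 each; two-sided exact permutation p = 0.743, adjusted p = 0.743 over 6 ratios). Mmp14 to Timp2 averaged -1.44 ± 1.29 in ICAM1-high libraries, against -0.98 ± 1.10 in ICAM1-low libraries (± SD, n = 4 each; exact permutation p = 0.657, adjusted p = 0.743). For Timp2 to Timp1 the means were 7.69 ± 1.61 in ICAM1-high libraries, against 6.13 ± 0.99 in ICAM1-low libraries (± SD, n = 4 each). The exact permutation p was 0.114 and the adjusted p 0.171. The ICAM1-high library was above its same-numbered partner in 4 of 4 cases, but equal numbers were not taken as pairs.

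**Figure D3:**
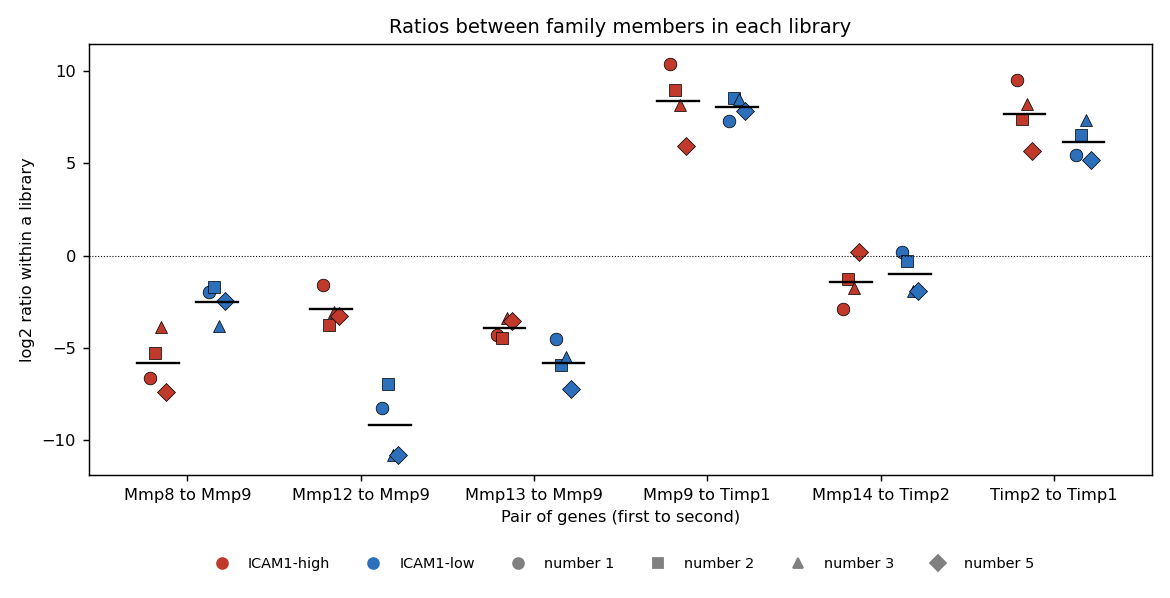
Log2 ratio between 2 genes of the set within each library, from CPM plus a pseudocount of 0.5, for ICAM1-high (red) and ICAM1-low (blue) libraries, with a line at the mean of 4. The 3 ratios to Mmp9 on the left do not overlap between the groups, and the 3 ratios with an inhibitor do.

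**Figure D4:**
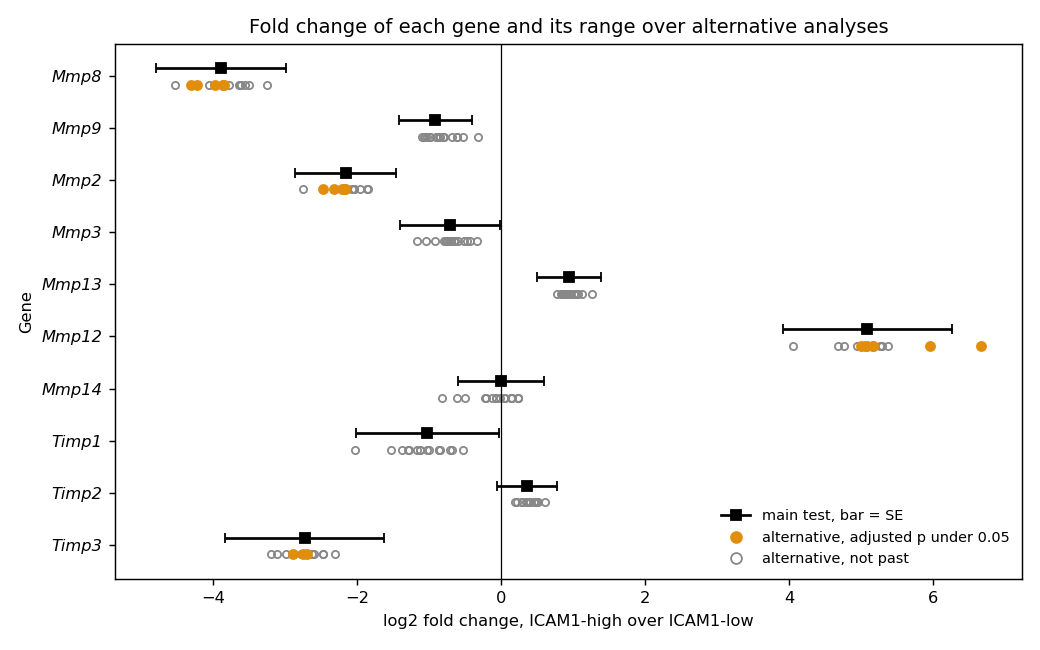
Log2 fold change (ICAM1-high over ICAM1-low) of the 10 genes in the main edgeR test with its SE (black squares) and in the alternative analyses (circles, filled where the adjusted p was under 0.05). Mmp8, Mmp2, Mmp12 and Timp3 have filled circles, and the circles of Mmp14 lie on both sides of 0.

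Levels of different genes were set side by side per length, as TPM, which are counts divided by the deposited gene length and scaled to a common total. In ICAM1-high libraries Mmp9 averaged 1160 ± 455 TPM, followed by Timp2 with 334 ± 133, Mmp2 with 291 ± 252 and Mmp14 with 279 ± 181 TPM (SD, n = 4), and these last 3 did not differ beyond their spread. Mmp12 averaged 147 ± 131 TPM, Mmp3 107 ± 87.9, Timp3 93.9 ± 61.2 and Mmp13 44.5 ± 14 TPM in ICAM1-high libraries. Mmp8 with 21.7 ± 21.2 and Timp1 with 8.67 ± 8.25 TPM were the lowest there. In ICAM1-low libraries the order began with Mmp9 at 1961 ± 682, Mmp2 at 1187 ± 701 and Timp3 at 606 ± 414 TPM (SD, n = 4). Mmp14 at 275 ± 165, Mmp8 at 270 ± 163 and Timp2 at 239 ± 54.0 TPM were within each other's spread in ICAM1-low libraries, and Mmp12 was last of the 10 at 4.55 ± 6.38 TPM. By median, Mmp12 ranked 6 of 10 in ICAM1-high libraries, against 10 of 10 in ICAM1-low libraries, and Mmp8 ranked 9 in ICAM1-high libraries, against 5 in ICAM1-low libraries.

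Shares of the summed TPM show the make-up of each library. Mmp9 made up 65.7, 67.7, 44.3 and 45.1% of the 7 metalloproteinases in ICAM1-high libraries 1, 2, 3 and 5, and 39.7, 47.3, 37.3 and 80.3% in ICAM1-low libraries 1, 2, 3 and 5. Mmp12 took 3.69 to 17.4% in ICAM1-high libraries, against 0.00574 to 0.292% in ICAM1-low libraries. Mmp2 made up 5.56 to 26.2% in ICAM1-high libraries, against 6.06 to 49.2% in ICAM1-low libraries, and Mmp8 0.149 to 1.98% in ICAM1-high libraries, against 1.74 to 9.46% in ICAM1-low libraries. The ranges of Mmp12 did not overlap, and those of Mmp2 and Mmp8 did. Mmp14 made up 40.0% in ICAM1-high library 5 and at most 12.3% in the other ICAM1-high libraries. Among the TIMPs, Timp2 held 65.8 to 91.0% of the summed TPM in ICAM1-high libraries. In ICAM1-low libraries 1, 2 and 3 Timp3 held 73.9 to 76.9%, whereas in ICAM1-low library 5 Timp2 held 81.7%. The summed metalloproteinase TPM was 1288 to 2477 in ICAM1-high libraries, against 3464 to 4778 in ICAM1-low libraries, with the ratio of metalloproteinase to TIMP sums between 3.78 and 6.24 in ICAM1-high and between 3.17 and 13.5 in ICAM1-low libraries. The 13.5 is that of ICAM1-low library 5, and the other 3 ICAM1-low libraries lay between 3.17 and 4.32.

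**Figure D5:**
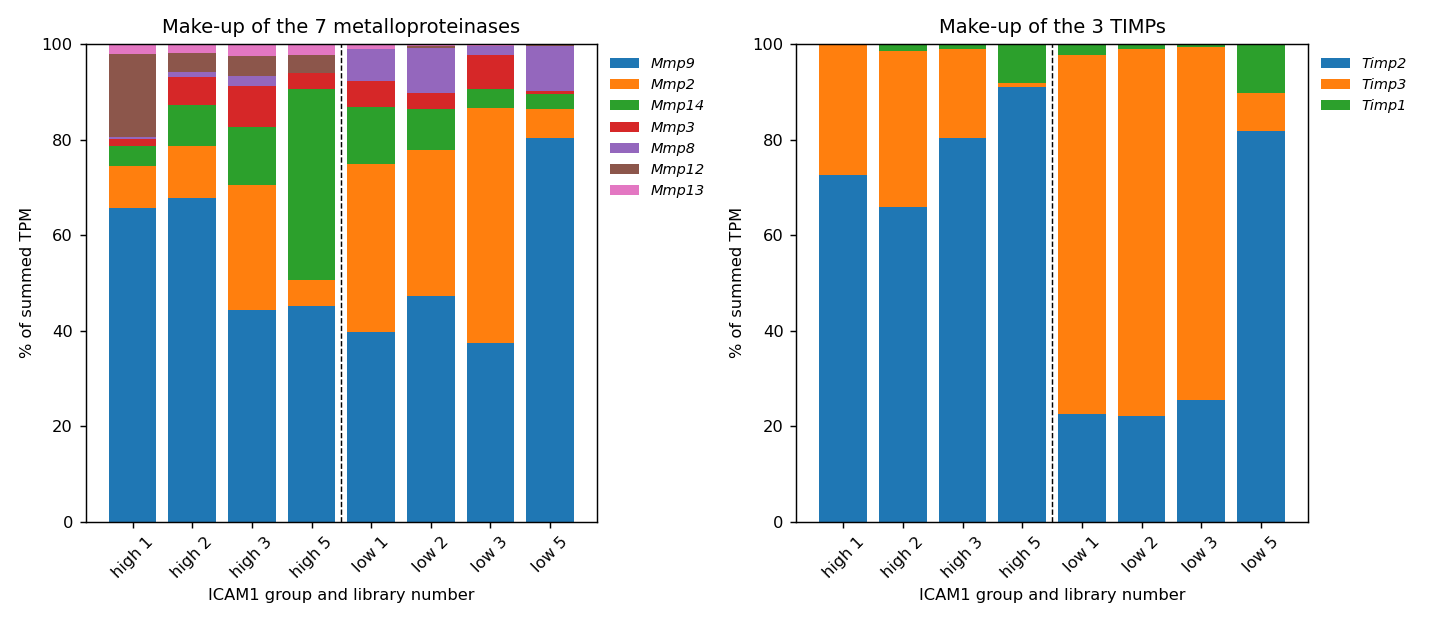
Percent of the summed TPM of the 7 metalloproteinases (left) and the 3 TIMPs (right) taken by each gene, for ICAM1-high libraries 1, 2, 3 and 5 and then ICAM1-low libraries 1, 2, 3 and 5. Timp2 makes up most of the TIMP sum in all ICAM1-high libraries and in ICAM1-low library 5, and Timp3 in ICAM1-low libraries 1, 2 and 3.

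Other genes of the pathway were read from lists chosen by function, with earlier results of these data known. Among 17 other metalloproteinase and TIMP genes, 6 were tested and none passed in either direction (edgeR adjusted p under 0.05), against 1.5% of all genes; at an unadjusted p under 0.05, 3 were lower, against 8.96% of all genes. These were Mmp25, Mmp28 and Mmp15. Mmp25, which encodes the membrane-anchored enzyme leukolysin of neutrophils, was 9.60, 13.3, 14.2 and 8.36 CPM in ICAM1-high libraries 1, 2, 3 and 5, against 40.1, 62.8, 23.3 and 117 CPM in ICAM1-low libraries 1, 2, 3 and 5 (log2 fold change -2.42 ± 0.59 SE; edgeR adjusted p = 0.0685). Like those of Mmp8, the Mmp25 groups did not overlap, as was the case for 3.89% of all genes on the lower side. Mmp28 averaged 0.155 ± 0.284 CPM in ICAM1-high libraries, against 8.75 ± 6.55 CPM in ICAM1-low libraries (± SD, n = 4 each; edgeR adjusted p = 0.119), with 2 ICAM1-high libraries at 0. The other metalloproteinases of the chromosome 9 run in the table, Mmp1a, Mmp10 and Mmp27, had too few counts to be tested.

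Of 19 tested ADAM and ADAMTS protease genes none passed, and at an unadjusted p under 0.05 there were 1 higher and 3 lower, against 7.96% of all genes higher and 8.96% lower. The foremost was Adamdec1, a protease gene of macrophages and dendritic cells, with 23.9 ± 28.4 CPM in ICAM1-high libraries, against 0.661 ± 0.673 CPM in ICAM1-low libraries (± SD, n = 4 each; log2 fold change 5.18 ± 1.34 SE; edgeR adjusted p = 0.0824). Adamts12 (log2 fold change -3.04 ± 0.98) and Adam12 (-2.93 ± 1.02) followed, with edgeR adjusted p of 0.154 and 0.181. Like Mmp2 and Timp3, Adamts12 had its lowest values of each group in the libraries numbered 5, with 5.36 CPM in ICAM1-high library 5, against 7.54 CPM in ICAM1-low library 5.

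Among 18 tested genes of activation, docking and clearance none passed, with 2 higher and 8 lower at an unadjusted p under 0.05 (7.96% and 8.96% over all genes). Lcn2, which encodes a neutrophil granule protein, was 179, 262, 280 and 18.9 CPM in ICAM1-high libraries 1, 2, 3 and 5, against 1281, 1258, 1141 and 849 CPM in ICAM1-low libraries 1, 2, 3 and 5 (edgeR adjusted p = 0.0889). The groups of Lcn2 did not overlap, as was the case for 3.89% of all genes on the lower side. The plasminogen activator genes, whose enzymes start the plasmin cascade that activates metalloproteinase precursors, had fold changes of opposite sign, neither past the threshold. Plau averaged 50.7 ± 49.9 CPM in ICAM1-high libraries, against 5.41 ± 5.94 CPM in ICAM1-low libraries (± SD, n = 4 each; log2 fold change 3.23 ± 1.13 SE; edgeR adjusted p = 0.183). Plat averaged 28.5 ± 11 CPM in ICAM1-high libraries, against 85.7 ± 21.6 CPM in ICAM1-low libraries (± SD, n = 4 each; log2 fold change -1.59 ± 0.46 SE; edgeR adjusted p = 0.122).

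AP-1 and ETS factors bind many metalloproteinase promoters. Their list, which also held Runx2, a factor of neither family, gave no gene past the threshold among 14 tested. At an unadjusted p under 0.05, 6 were lower and none higher, where 8.96% of all genes were lower and 7.96% higher. The 3 with the smallest p were Etv5 (log2 fold change -1.83 ± 0.59), Etv4 (-2.53 ± 0.84) and Fosb (-1.04 ± 0.41), with edgeR adjusted p from 0.156 to 0.235. The median log2 fold change was -1.22 over this list, -1.43 over the activation list, -0.80 over the ADAM and ADAMTS list and -2.65 over the other metalloproteinases, against -0.07 over all genes tested.

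Markers of further cell types were read beside these values. The 8 T and NK cell markers summed to 60.1 to 284 CPM in ICAM1-high libraries, against 2.11 to 38.7 CPM in ICAM1-low libraries, with 1 of 6 tested higher (Cd4), and 6 of the 8 at 0 in at least 1 library. Over all genes 1.22% were higher. Without both libraries numbered 5 none of the T and NK cell markers passed, against 2.97% of all genes in either direction. B cell markers summed to 38.2 to 358 CPM in ICAM1-high libraries, against 2.08 to 144 CPM in ICAM1-low libraries, with none of 5 past the threshold. Endothelial markers (20.4 to 66.9 CPM in ICAM1-high libraries, against 1.60 to 26.8 CPM in ICAM1-low libraries) and epithelial and mammary tumour markers (8.17 to 24.5 CPM in ICAM1-high libraries, against 0.319 to 68.5 CPM in ICAM1-low libraries) were low, and none of those tested passed the edgeR threshold. The part of these cell types in the results above was not tested.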

How the data were processed

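RNA sequencing libraries of sorted mouse neutrophils, 4 ICAM1-high and 4 ICAM1-low, were compared. Per the labels' protocols, RNA came from an RNeasy Micro kit and 150 pg per library went into a QIAseq FX Single Cell RNA kit. Per the submitters' processing notes, the tools were Trim Galore 0.6.6 and Salmon 1.9.0 with build GRCm39 (mm39). For annotation and settings, nothing is given in the sources used here. The authors deposited an estimated count for each gene and library, with 1 gene length per row. Of 25669 rows, 88 identifiers were repeated with identical values and were kept once, and 6482 identifiers took their symbol from the reference names.

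Estimated counts were rounded for edgeR 4.0.16 in R 4.3.3 (filterByExpr, TMM, robust glmQLFit and glmQLFTest, group as the only term, Benjamini-Hochberg adjustment over all genes, threshold 0.05). SE is the size of the log2 fold change divided by the square root of F. CPM use TMM-adjusted library sizes. TPM use the deposited lengths, which are not corrected for isoform use in each library, and ratios a pseudocount of 0.5 CPM. Counts need not equal molecules, since no molecular identifiers are named. In simulated counts of this comparison (13188 genes tested), 0, 1, 13 and 21 of 50 genes changed 2-, 4-, 8- and 16-fold were recovered, with no false call among 35.

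The genes, lists and alternatives were chosen with earlier results of these data known. Named from each list were the genes past the threshold, or else the 3 with the smallest p, and for each of the 10 genes the 3 with the highest Pearson's r among named genes whose log2 CPM averaged 4 or more. Alternatives were RLE, upper-quartile and no scaling factors, DESeq2 1.42.0, limma 3.58.1, other filters, a replicate term, other pseudocounts and leaving out libraries. The reference at hand is GRCm38, so it gave names, neighbours, exon overlaps and RefSeq start regions, and no coordinates were converted.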

Additional observations from a re-analysis of the deposited data

Results flagged for a closer look

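Timp3 stood apart in the libraries numbered 5 of both groups. In ICAM1-high, library 5 held 6.75 CPM against 279 to 375 CPM in the other 3, and the gap to its nearest neighbour was 0.927 of the group's whole range on the log2 scale. In ICAM1-low, library 5 held 73.7 CPM against 1640 to 2442 CPM, with a gap of 0.886 of the range. Summed cartilage markers were lowest in the same libraries, 8.51 CPM in ICAM1-high library 5 and 79.4 CPM in ICAM1-low library 5, and their part was not tested. The criterion was a gap, as a share of the range, above the Dixon critical value for 4 libraries. Of 32 groups of 4 libraries checked (10 genes and 6 ratios in both groups), these 2 met it. Chance alone gives about 1 in 20 per check where checks are independent. Both flags fell on Timp3 and on library number 5, so a count of flags cannot tell whether chance gave them. The ratios reuse genes of the set, so the checks were not independent.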

How the results depend on the processing

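In the main test 203 genes and none of the 10 passed the threshold. With DESeq2 there were 1226 genes and 4 of the 10, with limma-voom 809 and 3, and without a filter 365 and 1 (Mmp8). The stricter filter gave 2 of the 10 (Mmp8 and Mmp12), and upper-quartile scaling and library sizes only gave 1 each (Mmp12). Under those scalings the all-gene median shifted by 0.13 and 0.24 (log2). Leaving out single libraries gave 4 to 578 genes and 0 to 1 of the 10. The fewest genes came without ICAM1-low library 1 and the most without ICAM1-low library 5. Without both libraries numbered 5 there were 409 genes and 2 of the 10 (Mmp2 and Timp3).

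The numbers were not taken as pairs in the main test, since the labels do not say that equal numbers mark the same animal or day. Same-numbered libraries deviated together with r of -0.15, 0.12, 0.15 and 0.38 for numbers 1, 2, 3 and 5. Of the 4 ICAM1-high libraries, 2 were most like the ICAM1-low library of their own number. With so few libraries these values cannot exclude pairing. A replicate block gave 541 genes and 4 of the 10 (Mmp2, Mmp8, Mmp12 and Timp3). For the ratios an exact sign-flip permutation test over 4 pairs cannot go below p = 0.125.

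Apart from Mmp14, none of the 10 turned its sign in the 17 alternatives (16 for Timp1, which the stricter filter left out). Mmp14 stood at 0.14 with upper-quartile scaling, 0.16 with library sizes only, 0.053 with the stricter filter, and between -0.61 and 0.24 without single libraries. Of the 6 ratios, 3 had an unadjusted exact permutation p under 0.05. Without single libraries 1 to 2 did, and without both libraries numbered 5 there were 0, where an exact permutation of 3 against 3 cannot go below p = 0.10. The Mmp9 to Timp1 difference of 0.33 became -0.037 with a pseudocount of 2 CPM and ranged from -0.35 to 1.15 without single libraries. The Mmp14 to Timp2 difference ranged from -1.01 to 0.030 without single libraries and was -1.31 without both numbered 5. Of 9 marker sums, 3 had an exact permutation p under 0.05 (neutrophil, macrophage, T and NK cell), and 2 to 3 did without single libraries. Without ICAM1-low library 5 the chondrocyte sum was among them, and without ICAM1-high library 3 the endothelial sum was. The T and NK cell sum dropped out whenever 1 ICAM1-low library was left out. The neutrophil sum dropped out whenever 1 ICAM1-high library was left out. The causes of these changes were not tested.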
